A study of Rattus norvegicus with 47 samples.

Results

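The transforming growth factor beta (TGF-beta) genes Tgfb1, Tgfb2, Tgfb3, Tgfbr1, Tgfbr2, Smad7, Skil, Ctgf and Ltbp2 were followed in rat lung and blood after inhaled silica: 3 ligands, 2 receptors, 2 feedback inhibitors and 2 genes of the matrix. The genes were picked by name, and all 9 members were found among the 30045 gene lines of each of 4 count tables. Ctgf is the older name, used in these tables, of the gene now called Ccn2. All animals were healthy male Fischer 344 rats of 250 to 300 g, an inbred strain, and their age was not given in the labels used here. The silica groups inhaled Min-U-Sil 5, a fine crystalline quartz dust, by whole-body exposure on 5 days for 6 hours a day (15 mg/m3), and the control groups inhaled filtered air. Lung and blood were taken at 1 day or 6 months after exposure. Each of the 8 groups (2 tissues, 2 times, air or silica) had 6 libraries, except the air lung group at 6 months, which had 5, giving 47 libraries. Blood RNA was depleted of globin transcripts before sequencing, and different rats were used at the 2 times.

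TGF-beta is secreted as a latent complex that is stored in the matrix through latent TGF-beta binding proteins and freed by integrins and proteases. The active ligand binds the type II receptor, which phosphorylates the type I receptor, and the type I receptor in turn phosphorylates Smad2 and Smad3, which enter the nucleus with Smad4 and change transcription. In lung the pathway is known for driving fibroblasts to lay down matrix and for restraining inflammation, and inhaled quartz is a classical cause of fibrotic lung disease.

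Library totals ran from 1.21e7 to 2.59e7 estimated counts in lung and from 9.64e6 to 1.93e7 in blood. Levels are given as CPM, the counts per 1000000 of a library's total after TMM scaling within each table. They are not divided by transcript length, so levels were not compared between genes. A floor of 3 counts corresponds to 0.116 to 0.311 CPM and covers counting error only. Lung libraries held the type 1, type 2, endothelial and fibroblast markers of lung with none at 0. In blood at 1 day 2 of the 7 type 2 markers, the surfactant gene Sftpc and Slc34a2, were at 0 in all libraries. The 7 markers summed there to 176 to 236 CPM in air and 194 to 253 in silica. At 6 months none of the 7 was at 0 in all blood libraries. The summed level of 4 heart muscle markers ran from 1.77 to 285 CPM among the air lung libraries at 6 months, and the Tgfbr1 call at 6 months was kept with any 1 library left out.

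The upstream sequences of 3 members are shown because Tgfbr1 was the member that passed the test in lung and because Ctgf and Skil are textbook targets of Smad3. They are the 250 bases before the annotated start in RefSeq (build GRCr8, not the build of the count tables), 5′ to 3′ on the gene's strand. Capitals mark CAGAC, the short Smad-binding motif, or its reverse complement GTCTG. The Tgfbr1 window lies at chr5:66449148-66449397 (plus strand), that of Ctgf at chr1:22624615-22624864 (minus strand) and that of Skil at chr2:114203573-114203822 (minus strand).
Tgfbr1: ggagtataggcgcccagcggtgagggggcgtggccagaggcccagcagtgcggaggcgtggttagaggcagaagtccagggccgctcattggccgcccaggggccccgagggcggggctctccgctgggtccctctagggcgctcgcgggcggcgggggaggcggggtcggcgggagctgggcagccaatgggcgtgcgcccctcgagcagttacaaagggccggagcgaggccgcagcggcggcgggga
Ctgf: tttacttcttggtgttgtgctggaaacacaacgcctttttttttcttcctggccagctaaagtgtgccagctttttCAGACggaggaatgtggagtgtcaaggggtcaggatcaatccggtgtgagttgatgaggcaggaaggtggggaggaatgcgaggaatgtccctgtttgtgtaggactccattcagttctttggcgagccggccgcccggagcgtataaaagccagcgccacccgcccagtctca
Skil: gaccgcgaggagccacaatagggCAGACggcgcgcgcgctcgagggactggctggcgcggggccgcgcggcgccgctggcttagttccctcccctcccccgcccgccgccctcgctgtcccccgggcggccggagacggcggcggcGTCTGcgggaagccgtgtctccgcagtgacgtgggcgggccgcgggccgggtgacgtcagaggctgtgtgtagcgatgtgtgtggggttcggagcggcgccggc
All 9 members matched an entry in the table. CAGAC, searched on both strands, was found in 3 of the 9 windows, with 2 matches in Skil, 1 in Ctgf and 3 in Ltbp2, and in 42.9% of 33469 rat promoters of the same length. The palindromic Smad motif GTCTAGAC was in 0 of the 9 and in 0.173% of all promoters. No CAGAC stood in the Tgfbr1 window. Such matches describe letters in a window and not bound sites.

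The ligand genes did not pass the test in lung at either time. Tgfb1 encodes the isoform most studied in lung fibrosis. At 1 day its air libraries ran from 50.6 to 62.2 CPM with a median of 53.8, and its silica libraries from 53.4 to 58.2 with a median of 55.4. The groups overlapped, and the highest value of all was an air library. The difference between silica and air was 0.03 ± 0.047 on the log2 scale (SE; edgeR adjusted p = 0.756). At 6 months the 5 air libraries had 56.8, 52.5, 53.5, 47.0 and 56.4 CPM, and the 6 silica libraries ran from 48.2 to 60.6 with a median of 55.5. The groups again overlapped throughout, with a difference of 0.05 ± 0.066 (edgeR adjusted p = 0.669).

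Tgfb2 and Tgfb3 encode the other two isoforms, which are best known from heart, palate and lung development. Tgfb2 in lung at 1 day had 71.9 to 80.7 CPM in air (median 76.3) and 62.6 to 78.9 in silica (median 71.8), a log2 difference of -0.09 ± 0.052 (edgeR adjusted p = 0.283). At 6 months the air libraries had 73.4, 66.0, 65.3, 72.9 and 59.7 CPM and the silica libraries 69.0 to 78.9 (median 73.4). All 6 silica libraries stood above the air median there, but the log2 difference of 0.13 ± 0.058 did not pass (edgeR adjusted p = 0.157). Tgfb3 at 1 day had 18.8 to 21.3 CPM in air (median 19.3) and 12.8 to 19.1 in silica (median 16.9). The silica libraries were spread, at 12.8, 13.0, 15.3, 18.5, 18.6 and 19.1 CPM, and only the highest of them reached into the air range. The log2 difference was -0.27 ± 0.10 (edgeR adjusted p = 0.0872). At 6 months Tgfb3 had 18.6, 14.9, 15.3, 13.3 and 14.8 CPM in air and 11.8 to 15.4 in silica (median 14.5), with overlapping groups and a log2 difference of -0.13 ± 0.095 (edgeR adjusted p = 0.371).

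Tgfbr1, the type I receptor kinase that phosphorylates Smad2 and Smad3, was higher in silica-exposed lung at both times. At 1 day its air libraries ran from 90.9 to 122 CPM with a median of 111, and its silica libraries from 121 to 136 with a median of 131. All 6 silica libraries were above the air median, and the ranges met only where air library 38 lay above the lowest silica library. Tgfbr1 rose by a log2 fold change of 0.25 ± 0.060, a ratio of 1.2 (edgeR adjusted p = 0.0110). At 6 months the 5 air libraries had 99.2, 120, 103, 103 and 110 CPM, and the 6 silica libraries ran from 140 to 183 with a median of 148. Every silica library was above every air library. Tgfbr1 rose there by a log2 fold change of 0.52 ± 0.071, a ratio of 1.4 (edgeR adjusted p = 5.65e-04). These are bulk tissues, in which more cells of a type and more RNA per cell cannot be told apart.

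Tgfbr1 counts were not whole numbers in 30 of the 47 libraries, which marks reads shared with another line. The partner was taken as the line whose counts added to whole numbers with those of Tgfbr1 in all libraries (tolerance 0.006). This line, LOC103690035, held 0 to 12.0 counts per library, at most 0.724% of the 2 lines together. The sequences of the 2 lines were not compared. The other 8 members had whole counts in all 47 libraries.

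Tgfbr2, the type II receptor that binds the ligand first, stayed within a narrow band. At 1 day it had 685 to 775 CPM in air (median 730) and 735 to 790 in silica (median 755), a log2 difference of 0.05 ± 0.035 (edgeR adjusted p = 0.445). At 6 months the air libraries had 718, 729, 785, 736 and 747 CPM and the silica libraries 768 to 872 (median 796). All 6 silica libraries lay above the air median and only air library 52 reached into their range. The log2 difference was 0.11 ± 0.038 and narrowly missed the threshold (edgeR adjusted p = 0.0581). It passed when air library 52 (edgeR adjusted p = 0.0440) or silica library 64 (0.0447) was left out.

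**Figure D1:**
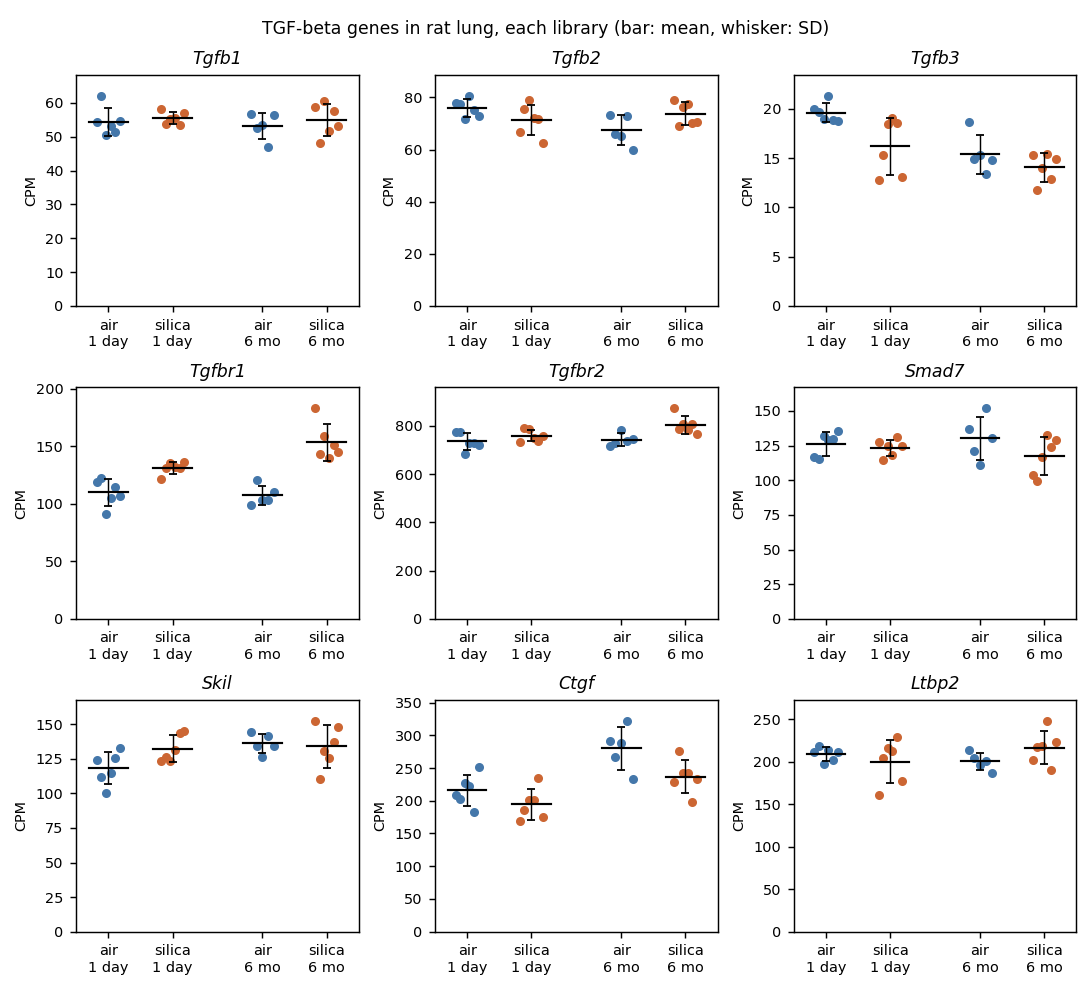
CPM (linear axis from 0) of the 9 members in each lung library, air in blue and silica in orange, at 1 day and 6 months; horizontal bars are group means and whiskers SD (n = 6, or 5 for air at 6 months). Only the Tgfbr1 panel at 6 months shows groups with no overlap, with silica from 140 to 183 and air from 99.2 to 120 CPM.

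The feedback inhibitors did not pass in lung. Smad7 encodes the inhibitory Smad that blocks the activated type I receptor and is itself induced by TGF-beta. At 1 day it had 115 to 135 CPM in air (median 129) and 115 to 131 in silica (median 125), a log2 difference of -0.03 ± 0.047 (edgeR adjusted p = 0.705). At 6 months it had 137, 121, 111, 152 and 130 CPM in air and 99.2 to 133 in silica (median 121), a log2 difference of -0.15 ± 0.090 (edgeR adjusted p = 0.300). Both times the groups overlapped, with 1 of 6 silica libraries above the air median. Skil encodes SnoN, a co-repressor of Smad complexes that is degraded and then re-induced by TGF-beta. At 1 day Skil had 100 to 133 CPM in air (median 120) and 123 to 145 in silica (median 129). All 6 silica libraries were above the air median, and the log2 difference of 0.16 ± 0.066 did not pass (edgeR adjusted p = 0.132). At 6 months Skil had 144, 135, 127, 141 and 134 CPM in air and 110 to 152 in silica (median 134), with a log2 difference of -0.03 ± 0.072 (edgeR adjusted p = 0.848).

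Ctgf, a matricellular protein and standard readout of TGF-beta signalling in fibroblasts, had lower values in silica than in air lung at both times without passing the test. At 1 day it had 183 to 251 CPM in air (median 216) and 169 to 234 in silica (median 194), a log2 difference of -0.15 ± 0.083 (edgeR adjusted p = 0.255). At 6 months the 5 air libraries had 291, 266, 289, 321 and 234 CPM and the silica libraries 199 to 276 (median 237). None of the 6 silica libraries reached the air median of 289 CPM, though 2 air libraries fell within the silica range. The log2 difference was -0.24 ± 0.085 (edgeR adjusted p = 0.0686). It passed when air library 54 (edgeR adjusted p = 0.0235) or silica library 59 (0.0292) was left out.

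Beside the Ctgf values, the summed level of 8 fibroblast and smooth muscle markers was lower in silica lung, with none of the 8 at 0. It ran from 1298 to 1455 CPM in air and 1141 to 1290 in silica at 1 day (two-sided exact permutation test, p = 0.0022, adjusted over 48 marker sums 0.0104). At 6 months the sum ran from 1214 to 1310 CPM in air and 1031 to 1197 in silica (exact permutation p = 0.0043, adjusted 0.0173). At each time 2 of the 8 markers fell and none rose. Summed endothelial and alveolar type 1 markers, given below, were also lower in silica lung at both times. The part of any of these markers in the Ctgf values was not tested.

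Ltbp2 encodes a matrix glycoprotein of the latent TGF-beta binding protein family that binds fibrillin. At 1 day it had 198 to 219 CPM in air (median 212) and 161 to 230 in silica (median 208), a log2 difference of -0.06 ± 0.071 (edgeR adjusted p = 0.614). The silica libraries were more spread, with a coefficient of variation of 12.8% against 3.81% in air. At 6 months it had 214, 205, 196, 201 and 186 CPM in air and 191 to 248 in silica (median 218), with 5 of 6 silica libraries above the air median. The log2 difference was 0.11 ± 0.060 (edgeR adjusted p = 0.228).

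At 1 day in lung, 1 of 9 members was called, Tgfbr1, and of all 15331 genes tested 14.1% were called, 8.39% higher and 5.72% lower. The median log2 difference of the 9 was -0.03, and that of all genes -0.0024. At 6 months 1 of 9 was called, again Tgfbr1, beside 16.2% of 15309 genes, 9.84% higher and 6.38% lower. The members' median was 0.05 and that of all genes -0.0080. The count of members called was thus close to the share of all genes at both times. At an unadjusted p under 0.05 there were 3 of 9 members at 1 day, beside 27.9% of all genes, and 4 of 9 at 6 months, beside 30.6%. Groups did not overlap for 0 of 9 members at 1 day, where 7.79% of all genes had such groups, and for 1 of 9 at 6 months, where 10.5% did.

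**Figure D2:**
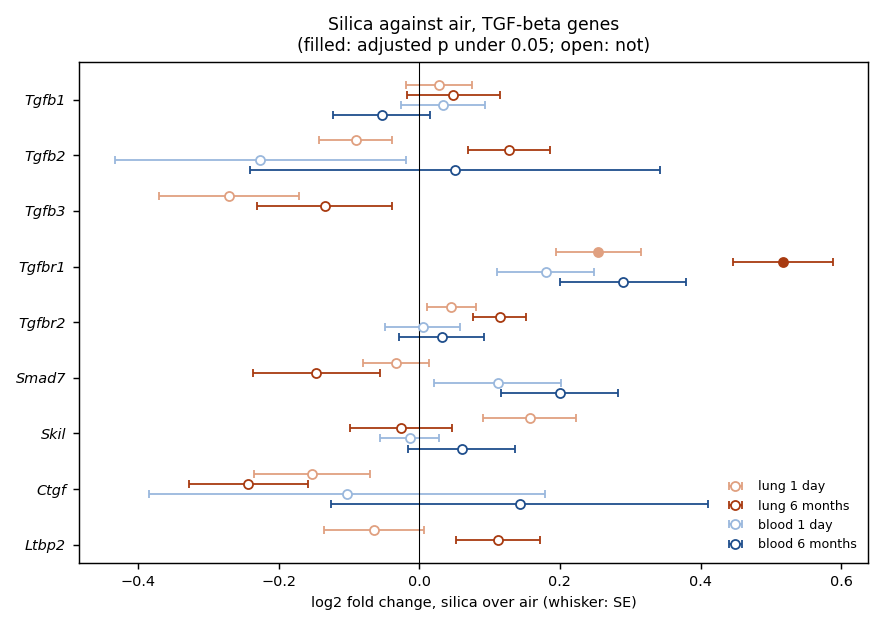
Log2 fold change of silica over air (x axis; whiskers SE) for each member (y axis) in lung and blood at both times; filled points passed the edgeR threshold of 0.05 and open points did not, and members too low to test in blood have no point. Only the 2 lung points of Tgfbr1, at 0.25 and 0.52, are filled.

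Whether the silica effect differed between the times was tested as an interaction over all 4 lung groups. Of the 9 members 0 had a larger and 0 a smaller silica effect at 6 months past the threshold, beside 1.12% and 0.253% of 15786 genes. The silica effect on Tgfbr1 was larger at 6 months than at 1 day by 0.27 ± 0.096 on the log2 scale, with an unadjusted p of 0.0109 and an edgeR adjusted p of 0.195. For Tgfb2 the difference between the effects was 0.22 ± 0.080 (unadjusted p = 0.0105, edgeR adjusted p = 0.191). These 2 of the 9 members had an unadjusted p under 0.05, beside 13.5% of all genes, and DESeq2 called 0 of the 9.

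The genes whose levels followed Tgfbr1 most closely across lung libraries were Myo5a, Msr1 and Mmp12, out of 12103 genes compared by Pearson's r on log2(CPM + 1). Myo5a encodes the motor myosin Va, Msr1 a scavenger receptor of macrophages and Mmp12 macrophage metalloelastase. For Myo5a r was 0.96 over the 12 libraries at 1 day and 0.99 over the 11 at 6 months. For Msr1 it was 0.99 and 0.95, and for Mmp12 0.97 and 0.95. These points share the silica difference itself. The genes were also picked by r over these same libraries. Their r values and their rises with silica are therefore not independent of the Tgfbr1 result. With each group's mean removed, r was 0.91 and 0.93 for Myo5a, 0.97 and 0.73 for Msr1, and 0.94 and 0.70 for Mmp12. In the same fits Myo5a rose by 0.66 ± 0.13 at 1 day and 0.72 ± 0.092 at 6 months on the log2 scale (edgeR adjusted p = 0.00340 and 3.54e-04), Msr1 by 0.50 ± 0.11 and 0.68 ± 0.097 (0.00560 and 7.20e-04), and Mmp12 by 1.32 ± 0.23 and 2.23 ± 0.28 (0.00158 and 3.22e-04).

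Macrophage markers were set beside Tgfbr1 as a list of 8, of which 7 were found in the tables and none was at 0 in lung. Their summed level at 1 day ran from 372 to 560 CPM in air and 444 to 618 in silica (two-sided exact permutation p = 0.132, adjusted 0.288), and 4 of the 6 tested markers rose. At 6 months it ran from 399 to 493 CPM in air and 589 to 730 in silica (exact permutation p = 0.0022, adjusted 0.0104), and 5 of 6 rose. The summed level of 7 neutrophil markers was also higher in silica lung, from 282 to 642 against 104 to 234 CPM at 1 day. At 6 months it ran from 409 to 597 against 201 to 311 CPM (exact permutation, adjusted p = 0.0104 at each time). Of these 7 markers 5 rose at 1 day and 2 at 6 months, and none fell. Among the lung libraries at 6 months, silica library 58 had the highest Tgfbr1, 183 CPM, and the highest macrophage sum, 730 CPM. Within the air group at 6 months, library 51 had the highest Tgfbr1, 120 CPM, and library 54 the highest sum, 493 CPM. At 1 day silica library 48 had the highest Tgfbr1, 136 CPM, and silica library 45 the highest sum, 618 CPM. Air library 38 had a sum of 560 CPM there with Tgfbr1 at 122 CPM. Alveolar type 2 markers (7, none at 0) summed to 20834 to 26157 CPM in air and 29471 to 36088 in silica at 6 months, where 6 of 7 rose (exact permutation, adjusted p = 0.0104), and to 22003 to 26927 and 22422 to 28413 CPM at 1 day, where 2 rose and 1 fell (adjusted p = 0.153). Alveolar type 1 markers (6, none at 0) were lower in silica, at 5593 to 5724 against 6055 to 6621 CPM at 1 day and 5518 to 6180 against 6205 to 6840 CPM at 6 months (exact permutation, adjusted p = 0.0104 at each time), and 4 and 2 of the 6 fell. The part of these cell types in the Tgfbr1 result and in the Itgb8 values was not tested.

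**Figure D3:**
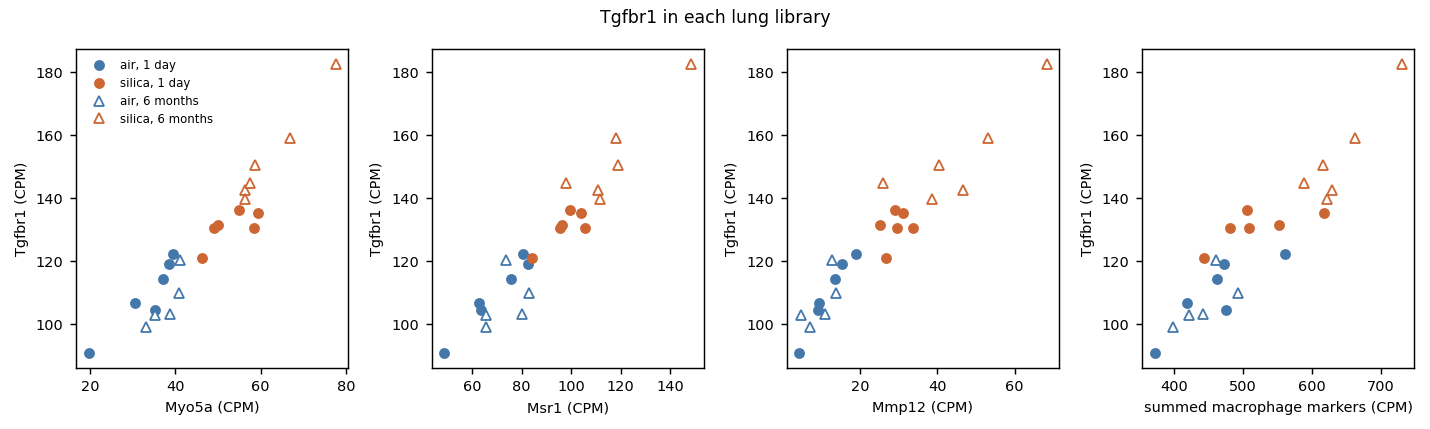
Tgfbr1 (y axis, CPM) in each lung library against Myo5a, Msr1, Mmp12 and the summed macrophage markers (x axes, CPM); air in blue, silica in orange, filled circles 1 day and open triangles 6 months, axes not starting at 0. Levels were scaled within each time. At 6 months the silica libraries have higher Tgfbr1 than the air libraries, from 140 to 183 against 99.2 to 120 CPM. Silica library 58 lies farthest to the upper right. At 1 day silica library 48 has the highest Tgfbr1 and silica library 45 the highest macrophage sum.

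Other genes of the pathway were read from 5 lists of 67 genes in all. At 1 day in lung 66 were tested, of which 6 rose and 5 fell, beside the 8.39% and 5.72% of all genes given above. At 6 months 5 rose and 9 fell of 66, beside 9.84% and 6.38%. The median log2 difference of these 66 was -0.0090 at 1 day and -0.03 at 6 months. For the difference between the times in lung, 0 of the 67 had a larger and 0 a smaller effect past the threshold, beside 1.12% and 0.253% of all genes.

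Of the 12 genes of latency and activation, 1 rose and 1 fell at 1 day, and 1 rose and none fell at 6 months. Itgb8, the beta subunit of an integrin that frees TGF-beta from its latent complex, had 14.5 to 20.7 CPM in air and 33.2 to 45.5 in silica at 1 day. At 6 months it had 16.1 to 23.0 CPM in air and 39.0 to 68.8 in silica. At both times each silica library stood above each air library. Itgb8 rose by a log2 fold change of 1.12 ± 0.088 at 1 day (edgeR adjusted p = 2.24e-06) and 1.24 ± 0.15 at 6 months (3.20e-04), and the difference passed with any 1 library left out. Ltbp4, which anchors latent TGF-beta in the matrix, fell by 0.14 ± 0.029 on the log2 scale at 1 day, from a mean of 754 ± 22.7 to 686 ± 17.3 CPM (SD, n = 6 each; edgeR adjusted p = 0.00579). At 6 months its log2 difference of -0.15 ± 0.051 did not pass (edgeR adjusted p = 0.0677). The difference between the effects at the 2 times was -0.0044 ± 0.057 (edgeR adjusted p = 0.987).

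Of 9 co-receptors and related receptors none passed at 1 day, with 2 at an unadjusted p under 0.05, beside 27.9% of all genes. At 6 months 3 fell and none rose, and the list's median log2 difference was -0.13. Acvrl1 (ALK1), the endothelial type I receptor, fell by 0.30 ± 0.046 on the log2 scale, from a mean of 756 ± 31.7 (SD, n = 5) to 616 ± 38.5 CPM (n = 6; edgeR adjusted p = 0.00122). Eng, the endothelial co-receptor endoglin, fell by 0.34 ± 0.061, from 888 ± 71.7 to 700.5 ± 51.5 CPM (edgeR adjusted p = 0.00261). For both genes the silica and air libraries did not overlap. Bmpr2, the type II receptor for bone morphogenetic proteins (BMPs), fell by 0.18 ± 0.056 (edgeR adjusted p = 0.0443), and its call was lost without air library 49, 52 or 53 or silica library 58, 59, 60 or 62 (0.0602 to 0.0903).

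Endothelial markers were lower in the same libraries. The summed level of 7 such markers, none at 0, ran from 3856 to 4270 CPM in air and 3072 to 3610 in silica at 6 months (two-sided exact permutation p = 0.0022, adjusted 0.0104), and 7 of 7 fell. At 1 day it ran from 3777 to 4151 CPM in air and 3440 to 3792 in silica (exact permutation p = 0.0043, adjusted 0.0173), and 4 of 7 fell. Their part in the values of Acvrl1, Eng and Bmpr2 was not tested.

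Of 15 Smads and regulators, none rose and 1 fell at 1 day, and 1 rose and 3 fell at 6 months. Smad5, which carries BMP signals, fell by 0.18 ± 0.029 on the log2 scale at 6 months (edgeR adjusted p = 0.00154), and every silica library (111 to 118 CPM) was below every air library (126 to 133). At 1 day Smad5 fell by 0.10 ± 0.031 (edgeR adjusted p = 0.0461), a call kept only without air library 38 or 39 and lost without each of the other 10 libraries (0.0515 to 0.0944). Pmepa1, a TGF-beta-induced membrane protein that sequesters Smad2 and Smad3, rose by 0.18 ± 0.052 at 6 months (edgeR adjusted p = 0.0338), lost without air library 51, 53 or 54 or silica library 58, 59, 60 or 62 (0.0509 to 0.0829). Smurf2, a ubiquitin ligase that targets the type I receptor through Smad7, fell by 0.12 ± 0.035 (edgeR adjusted p = 0.0346), lost without air library 53 or silica library 60 or 61 (0.0535 to 0.0614). Smad6, the inhibitory Smad of the BMP branch, named after its values were seen, fell by 0.36 ± 0.12 (edgeR adjusted p = 0.0491), lost without air library 49, 51, 53 or 54 or silica library 58, 59, 60 or 61 (0.0664 to 0.112).

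Of 15 genes known to be induced by TGF-beta, 4 rose and 2 fell at 1 day. Cdkn2b, the cell cycle inhibitor p15, rose by 0.20 ± 0.035 on the log2 scale, from 83.9 to 94.2 CPM in air to 97.4 to 104 in silica (edgeR adjusted p = 0.00132). Fn1, fibronectin, rose by 0.24 ± 0.045, from 1056 to 1254 CPM in air to 1343 to 1540 in silica (edgeR adjusted p = 0.00251). For both genes each silica library stood above each air library. Fstl3, a secreted inhibitor of activin, fell by 0.36 ± 0.085, from 7.70 to 8.52 CPM in air to 5.54 to 7.33 in silica (edgeR adjusted p = 0.0101). The remaining calls at 1 day, named after their values were seen, were rises of Timp1 (0.22 ± 0.064) and Tgfbi (0.18 ± 0.055) and a fall of Postn (-0.15 ± 0.039). At 6 months edgeR called 0 of the 15, with 7 at an unadjusted p under 0.05, beside 30.6% of all genes. The test of the difference between the times called 0 of the 15. The call of Timp1 was lost without air library 40, 41 or 42 or silica library 43, 44, 45 or 46 (edgeR adjusted p = 0.0507 to 0.0797), and that of Tgfbi without each of 10 of the 12 libraries, all but air library 41 and silica library 44 (0.0501 to 0.102).

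Of the 16 genes of BMP and activin ligands, antagonists and targets, 15 were tested in lung, and 1 rose and 1 fell at 1 day. Bmp5 rose by 0.24 ± 0.063 on the log2 scale and Bmp6 fell by 0.21 ± 0.057 (edgeR adjusted p = 0.0210 and 0.0227), the latter lost without silica library 46, 47 or 48 (0.0510 to 0.0551). At 6 months 3 rose and 3 fell. Bmp6 fell by 0.22 ± 0.052, Nog, a secreted BMP antagonist, rose by 0.40 ± 0.11, and Inhbb, an activin subunit, rose by 0.25 ± 0.072 (edgeR adjusted p = 0.0139, 0.0214 and 0.0306). The Nog call was lost without air library 51 or 53 or silica library 59 (0.0502 to 0.0564), and the Inhbb call without air library 49, 51, 52 or 53 or silica library 58, 60 or 62 (0.0557 to 0.0767). Bmp4 (0.20 ± 0.061), Fstl1 (-0.16 ± 0.049) and Bmp7 (-0.81 ± 0.26), named after their values were seen, passed at edgeR adjusted p = 0.0446, 0.0425 and 0.0486. The level of Bmp7 was low, at 1.87 to 4.26 CPM in air and 0.979 to 2.65 in silica, and its groups overlapped. Of the 11 libraries, leaving out 1 ended the Bmp4 call for all but silica library 59, the Fstl1 call for all but air library 54 and silica library 61, and the Bmp7 call for all but air library 51 and silica libraries 61 and 64.

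**Figure D4:**
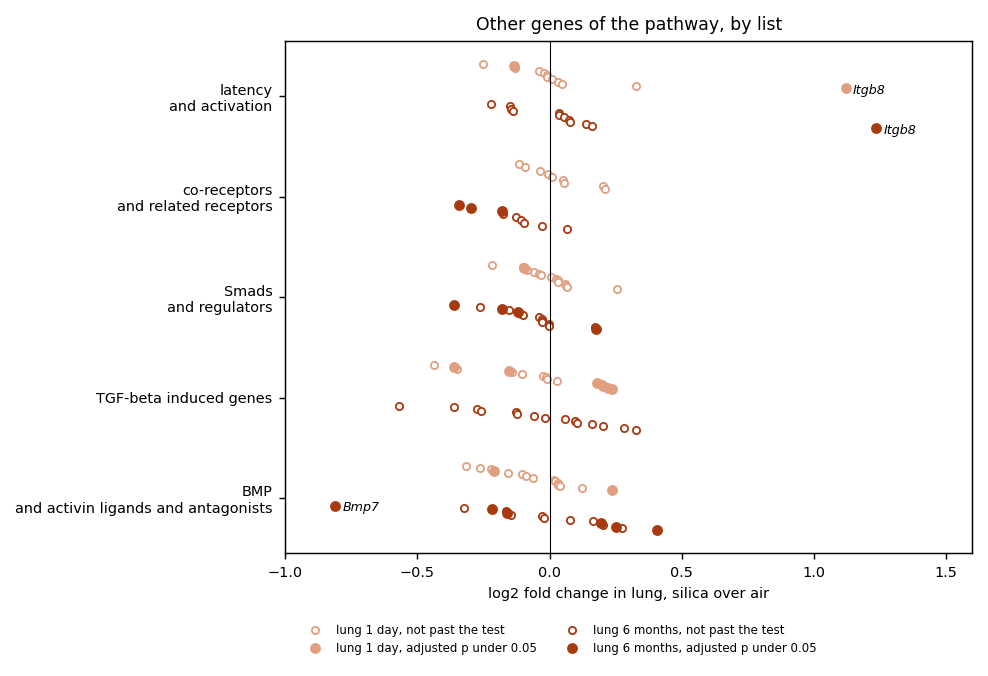
Log2 fold change of silica over air in lung (x axis) for each tested gene of the 5 lists (y axis), light points 1 day and dark points 6 months, filled where the edgeR adjusted p was under 0.05. Itgb8 (1.12 and 1.24) lies apart on the right. On the left lies Bmp7 (-0.81 at 6 months), a gene of low level whose air and silica groups overlapped.

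Blood held fewer of the transcripts. Ltbp2 was at 0 counts in all blood libraries but 1, an air library at 6 months with 1 count, and a count of 0 allows up to the floor of 3 counts. Tgfb3 had 3 to 16 counts per library, and both genes were too low to be tested in the tables of single times. Ctgf had 7 to 53 counts and Tgfb2 7 to 32 counts. Tgfb1, Tgfbr1, Tgfbr2, Smad7 and Skil were all measured at 10.5 CPM or more.

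Of the 7 members tested in blood at 1 day 0 rose and 0 fell, beside 1.19% and 0.18% of 12253 genes. An unadjusted p under 0.05 was found for 1 of 7, Tgfbr1, beside 12.9% of all genes, and DESeq2 and limma-voom each called 0. At 6 months 0 of 7 were called beside 0.0086% of 11629 genes, with 2 of 7 at an unadjusted p under 0.05, Tgfbr1 and Smad7, beside 8.70% of all genes, and 0 called by DESeq2 or limma-voom. None of the 9 members had groups that did not overlap, beside 1.93% of all genes at 1 day and 0.378% at 6 months. The test of the difference between the times called 0 of 8 members and 0% of 12444 genes, with 0 members at an unadjusted p under 0.05 and 0 called by DESeq2.

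Tgfbr1 in blood at 1 day had 31.1 to 41.4 CPM in air (median 34.2) and 35.4 to 42.2 in silica (median 40.0). Values at 6 months ran from 29.9 to 38.2 CPM in air (median 33.7) and 35.7 to 50.1 in silica (median 40.3). At each time all 6 silica libraries lay above the air median and the ranges overlapped. The log2 differences were 0.18 ± 0.069 and 0.29 ± 0.089 (edgeR adjusted p = 0.277 and 0.539). Lung and blood share animal numbers in the labels, and whether the silica effect differed between the tissues was not tested. Macrophage markers in blood at 1 day summed to 205 to 281 CPM in air and 169 to 231 in silica (exact permutation p = 0.173, adjusted 0.346), and at 6 months to 240.1 to 300.0 and 231 to 289 (p = 0.548, adjusted 0.773). Neutrophil markers summed to 2092 to 2699 CPM in air and 3447 to 4253 in silica at 1 day (exact permutation, adjusted p = 0.0104). Their 6-month sums were 3211 to 3926 and 3359 to 5244 CPM (exact permutation, adjusted p = 0.213). The part of these cell types in the blood Tgfbr1 values was not tested.

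Tgfb1 in blood at 1 day had 71.0 to 88.9 CPM in air (median 78.6) and 74.7 to 87.1 in silica (median 79.1), a log2 difference of 0.03 ± 0.059 (edgeR adjusted p = 0.868). The 6-month values were 58.8 to 74.5 CPM in air (median 62.9) and 52.9 to 66.2 in silica (median 63.8), a log2 difference of -0.05 ± 0.069 (edgeR adjusted p = 0.837). The groups overlapped at both times. Tgfbr2 had 101 to 118 CPM in air and 102 to 118 in silica at 1 day, and 77.5 to 95.7 in air and 79.7 to 93.4 in silica at 6 months (edgeR adjusted p = 0.987 and 0.897).

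Smad7 in blood had 11.9 to 19.3 CPM in air (median 15.4) and 15.4 to 17.9 in silica (median 16.2) at 1 day (edgeR adjusted p = 0.656). The 6-month values were 10.5 to 12.5 CPM in air (median 10.7) and 11.2 to 15.4 in silica (median 12.4), with all 6 silica libraries above the air median and a log2 difference of 0.20 ± 0.084 (edgeR adjusted p = 0.554). Skil had 48.4 to 53.3 CPM in air and 47.7 to 53.7 in silica at 1 day, and 37.5 to 49.2 in air and 39.5 to 51.3 in silica at 6 months (edgeR adjusted p = 0.930 and 0.835). The low genes Tgfb2 and Ctgf had log2 differences of -0.23 ± 0.21 and -0.10 ± 0.28 at 1 day and 0.05 ± 0.29 and 0.14 ± 0.27 at 6 months, whose errors are several times those of the abundant members.

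Of the other pathway genes in blood, 36 were tested at 1 day, of which 1 rose and none fell, beside 1.19% and 0.18% of all genes. At 6 months 33 were tested and none passed, beside 0.0086% of all genes. The gene that rose was Id1, a direct target of BMP signalling, with 10.9 to 17.2 CPM in air and 16.9 to 23.8 in silica. Its log2 fold change was 0.50 ± 0.10 (edgeR adjusted p = 0.0294), and the call was lost without air library 37, 41 or 42 or silica library 45, 46 or 47 (0.0632 to 0.0735). Neutrophil markers were higher in the same silica libraries, from 3447 to 4253 CPM against 2092 to 2699 in air (7 markers, none at 0, of which 4 rose; exact permutation p = 0.0022, adjusted 0.0104), and their part in the Id1 value was not tested.

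**Figure D5:**
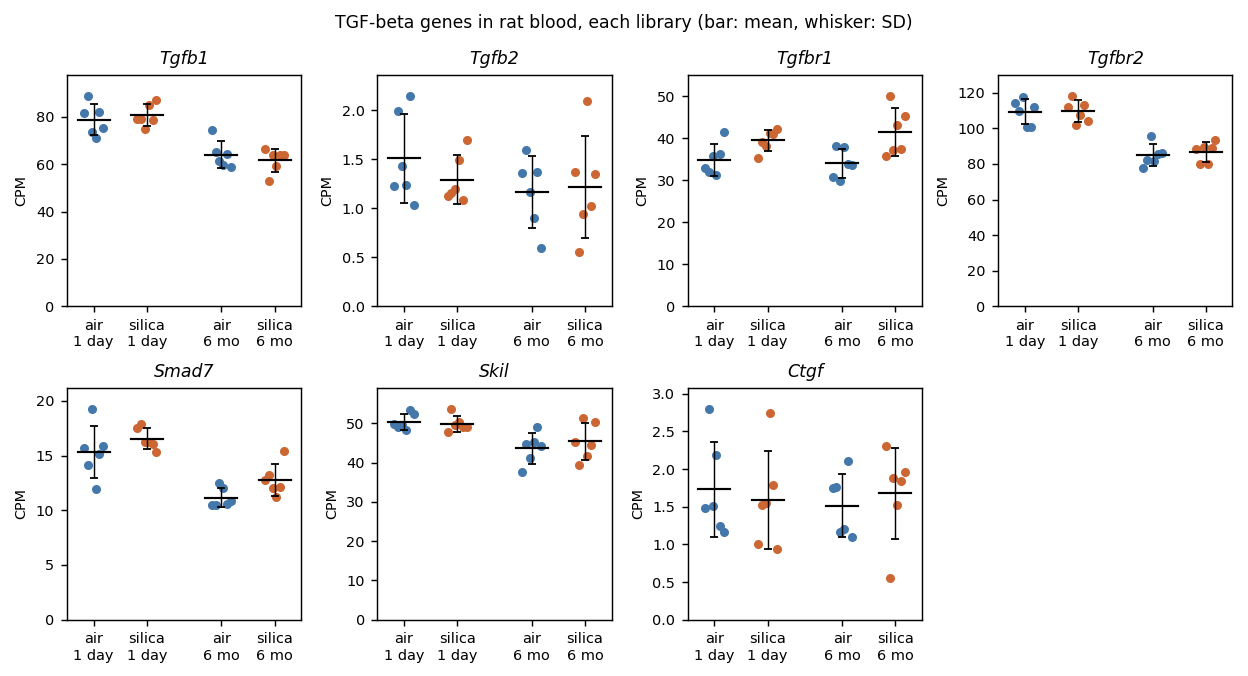
CPM (linear axis from 0) of the 7 members tested in each blood library, air in blue and silica in orange, at 1 day and 6 months; horizontal bars are group means and whiskers SD (n = 6 per group). Air and silica overlap in each of the 7 panels at both times; Tgfbr1 at 6 months runs from 29.9 to 38.2 CPM in air and 35.7 to 50.1 in silica.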

How the data were processed

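RNA came from lung and globin-depleted whole blood and was sequenced with a stranded kit for polyadenylated RNA, per the labels' protocols. Salmon 1.10.1, STAR 2.6.1d and the build Rnor_6.0 stand in the submitters' processing notes, with Trim Galore 0.6.7, cutadapt 3.4 and bcl2fastq 2.19. Each deposited table (1 for each tissue and time) holds the authors' estimated counts per gene, not normalized, in which reads of similar genes are split. They were rounded here to whole counts. Columns were matched to samples by title.

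Silica was compared with air by the quasi-likelihood test of edgeR 4.0.16 (R 4.3.3) with TMM factors. Genes were kept by filterByExpr (minimum count 10), p-values were adjusted by Benjamini-Hochberg over all genes tested, and the threshold was 0.05. SE is the size of the log2 change divided by the square root of F. The tables of both times entered 1 fit for the interaction. The script was tested on simulated data. DESeq2 1.42.0 and limma-voom (limma 3.58.1) were alternatives. Marker sums were tested by exact permutation, two-sided (NumPy 2.4.6). In each pathway list up to 3 called genes with the smallest p were named; likeness used genes of at least 5 mean CPM in both lung tables. Members and lists were chosen with earlier results of these data known. One gene of a pathway list is not reported here.

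No 2 libraries of a group agreed within sampling noise (chi-square per degree of freedom 3.76 to 35.3). Libraries of a group carry different animal numbers, and p-values measure the spread between them. Chambers and cages were not given, so treatment and chamber cannot be told apart.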

Additional observations from a re-analysis of the deposited data

Results flagged for a closer look

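One library stood apart from its group. Tgfb1 in air library 38 of the lung at 1 day had 62.2 CPM, the nearest other air library 54.7 and the lowest 50.6, so the gap took up a share of 0.643 of the group's range. Of 64 groups looked at in this way 1 had such a library, and chance gives about 1 in 20.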

How the results depend on the processing

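Tgfbr1 kept its call in lung under all 21 alternatives at 1 day (log2 0.20 to 0.29, edgeR, DESeq2 or limma-voom adjusted p 0.00118 to 0.0306) and all 20 at 6 months (0.46 to 0.56, 3.22e-10 to 0.00258); these include its summation with LOC103690035, chosen after seeing the data. Of 1191 member values under alternatives, none called changed sign, 1182 stayed on their side of the threshold and 9 passed anew: Tgfb3 at 1 day with DESeq2 (adjusted p = 0.0497), Tgfbr2 at 6 months with DESeq2 (0.0214), a minimum count of 50 (0.0499), all 4 lung groups in 1 fit (0.0325) and without air library 52 or silica library 64, and Ctgf at 6 months with DESeq2 (0.0284) and without air library 54 or silica library 59. Members called in lung thus numbered 2 at 1 day with DESeq2, and at 6 months 3 with DESeq2, 2 with a minimum count of 50, 2 with all 4 groups and 1 to 2 with 1 library left out. Genes called in blood numbered 360 at 1 day with DESeq2 and 86 to 211 with 1 library left out, and at 6 months 2 with DESeq2 and 0 to 1. For the difference between the times DESeq2 called 351 genes in lung and 85 in blood, where leaving out 1 library gave 0 to 3. The cause was not tested. With all 4 groups of a tissue in 1 fit, the calls of Timp1 (adjusted p = 0.157), Tgfbi (0.0833), Bmp5 (0.0530), Bmpr2 (0.0593), Pmepa1 (0.0828), Bmp4 (0.0598), Nog (0.0936) and Id1 (0.123) were lost, and with no filter on low counts those of Smad5 at 1 day, Tgfbi, Bmpr2, Smad6, Smurf2, Bmp7 and Fstl1 (adjusted p up to 0.0835). A minimum count of 50 ended the Smad5 call at 1 day (0.0512) and limma-voom that of Bmp4 (0.0503). No paired analysis was possible because the silica and air groups compared share no animal. Counts of at most 53 per library limit Tgfb2, Tgfb3, Ctgf and Ltbp2 in blood.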
